A study of Rattus norvegicus with 16 samples.

Results

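GABA-A receptors are the chloride channels that carry fast inhibition in the brain, and 7 of their subunit genes were followed here in the rat gustatory cortex (GC), the taste area of the insula, after the learning of an unfamiliar taste. The genes were Gabra2, Gabra3, Gabra4, Gabra5, Gabrb1, Gabrb2 and Gabrd. They were chosen by name, as the probe sets that the array annotation pairs with one of these symbols, and each gene had 1 probe set, so that they made up 7 of the 15209 probe sets and 7 of the 14497 genes that could be tested.

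Expression was measured on 16 Affymetrix arrays of total RNA from the GC of Wistar Hola male rats, with no genetic change, 1 rat per array and 4 arrays to a group. The rats were adult (2 months by the sample labels, while the study's methods give a somewhat older range). All of them, controls included, were on restricted water and had been trained for 3 days to drink water from pipettes. After this training they were given 0.1% saccharin as an unfamiliar taste, or water as the familiar control. The GC was taken 1 h or 3 h later. Crossing drink with time gave 4 groups, named here by drink and then time, and no undisturbed or water-sated rats enter these comparisons. Values are log2 expression as deposited, and differences are log2 units, given as 1 h minus 3 h for time and as saccharin minus water for taste.

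A GABA-A receptor is a ring of subunits around a chloride pore. GABA binds where a beta subunit meets an alpha subunit, and the classical benzodiazepines bind where certain alpha subunits meet a gamma subunit. Receptors with a gamma subunit cluster at synapses and carry brief inhibitory currents, while those with the delta subunit, and many with alpha5, lie outside synapses and carry tonic inhibition. In the neocortex inhibition of this kind sets the timing and the gain of pyramidal cell firing, and the subunit makeup of a receptor sets its kinetics, place and drug sensitivity.

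The promoter windows of the genes are shown first because the genes fell into different promoter types. RefSeq promoters (250 bases before the start and 50 after it, GRCr8) were held for 6 of the 7 genes, and none for Gabra2. Those of 4 genes are printed. Gabra3 is shown with Gabra5 and Gabrb1, with each of which it correlated over the pooled arrays, as described with its limits further on. Gabrb2 is shown because it shares letters with Gabrb1. Capitals in Gabrb1 and Gabrb2 mark every run of at least 10 bases that both hold on the same strand, capitals in Gabra5 mark a GC box, and Gabra3 holds neither.
Gabrb1 (GRCr8 chr14:36902844-36903143, minus strand): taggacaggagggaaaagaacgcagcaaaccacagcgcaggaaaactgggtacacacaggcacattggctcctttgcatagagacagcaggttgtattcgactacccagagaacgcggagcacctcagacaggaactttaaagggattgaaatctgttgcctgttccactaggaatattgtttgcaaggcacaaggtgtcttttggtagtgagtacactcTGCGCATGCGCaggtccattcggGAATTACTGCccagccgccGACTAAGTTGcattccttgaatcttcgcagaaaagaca
Gabrb2 (GRCr8 chr10:27439543-27439842, plus strand): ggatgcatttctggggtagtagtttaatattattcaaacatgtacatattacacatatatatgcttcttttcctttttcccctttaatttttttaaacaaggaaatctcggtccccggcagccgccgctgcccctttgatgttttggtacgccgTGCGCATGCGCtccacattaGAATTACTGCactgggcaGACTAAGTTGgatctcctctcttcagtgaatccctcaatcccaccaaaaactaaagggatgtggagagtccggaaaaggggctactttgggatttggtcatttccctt
Gabra5 (GRCr8 chr1:117516557-117516856, minus strand): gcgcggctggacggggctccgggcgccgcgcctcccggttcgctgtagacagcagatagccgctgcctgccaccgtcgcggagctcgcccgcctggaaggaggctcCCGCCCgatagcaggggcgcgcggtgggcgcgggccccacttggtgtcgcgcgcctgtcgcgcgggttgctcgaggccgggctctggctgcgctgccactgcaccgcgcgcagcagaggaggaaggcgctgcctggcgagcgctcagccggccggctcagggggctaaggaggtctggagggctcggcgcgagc
Gabra3 (GRCr8 chrX:155543821-155544120, minus strand): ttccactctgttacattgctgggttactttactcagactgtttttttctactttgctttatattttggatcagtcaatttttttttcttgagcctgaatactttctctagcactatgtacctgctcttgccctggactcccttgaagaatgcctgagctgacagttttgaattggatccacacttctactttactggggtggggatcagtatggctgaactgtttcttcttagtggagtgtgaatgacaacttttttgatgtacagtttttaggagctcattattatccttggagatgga

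Gabrb1 and Gabrb2, which lie on chromosomes 14 and 10, shared 3 such runs in the same order. The first, TGCGCATGCGC, is 11 bases long, begins at position -30 from the start of Gabrb1 and at -96 from that of Gabrb2, and stood on either strand in 0.598% of the 33469 promoters. It holds the palindrome GCGCATGCGC, the consensus of nuclear respiratory factor 1 (NRF1), which was found in 0.852% of all promoters and, among the 6 genes, in these 2. The second run, GAATTACTGC, stood in 13 promoters of the table (0.0388%), and the third, GACTAAGTTG, in 5 (0.0149%). Gabrb1 and Gabrb2 hold all 3 runs by the way the runs were defined, and no other of the 33469 promoters held all 3 on one strand. How often any 2 promoters of the table share 3 runs of this length was not counted. These runs were picked out after the sequences had been seen. Of the 15 pairs of genes, 4 shared any run of at least 10 bases, and no other pair shared 3.

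The other windows differed in base composition. Gabra5 was 76.3% GC with 42 CpG, Gabrd 73.7% with 40 and Gabra4 70.7% with 35, against medians of 51.7% and 7 over all promoters. Each of these 3 held the GC box GGGCGG on one strand or the other, as did 33.1% of all promoters. Gabrb1 was 49.3% GC and Gabrb2 44%, with 11 and 9 CpG. Gabra3 was 39.3% GC and held no CpG, as did 5.47% of all promoters. A cyclic AMP response element (TGACGTCA, in 1.83% of all promoters), an AP-1 site (TGANTCA, 7.33%) and an EGR site (GCGTGGGCG, 0.544%), each searched on both strands, were found in 0 of the 6 windows. A match of this kind describes letters in a window and was not tested for binding.

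The genes also lie in clusters with other subunits. In the GRCr8 annotation Gabrb1 and Gabra4 are neighbours on chromosome 14, followed after 1 other protein-coding gene by Gabra2 and then Gabrg1. Gabra5 lies beside Gabrg3 on chromosome 1, and Gabrb2 beside Gabra6 on chromosome 10. Gabra3 is on the X chromosome between Gabre and Gabrq, with 1 gene between it and each of them, and Gabrd, on chromosome 5, has no subunit gene beside it.

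Across the 16 arrays the medians of all probe sets were 5.08 to 5.16, any pair of arrays correlated at 0.994 to 0.997, and none of the 120 pairs held identical values. The defining markers of the labelled tissue were present, with list means of 9.91 to 10.14 over the arrays for 5 cortical excitatory neuron genes and 8.04 to 8.24 for 12 interneuron genes, and with Camk2a at a mean of 11.76 and Cck at 10.93. The 4 choroid plexus genes stayed at 3.56 to 3.77, under the median of every array. The list means of the neighbouring striatum (13 genes, 6.35 to 6.55) and of the thalamus (3 genes, 6.16 to 6.52) lay above it. Members of the striatal list differed. Drd2 (group means 4.52 to 4.90) and Adora2a (4.83 to 4.93) lay under the lowest array median, and the brightest, Foxp1, stood at 8.17 to 8.23. Whether the samples held striatal tissue was not tested. These lists rest on different probe sets, so their levels cannot be set against each other. Averaged over the tastes, 9 of 9 measured leptomeningeal and fibroblast genes lay higher at 1 h than at 3 h, by a median log2 of 0.29. Of these, 7 had an unadjusted p under 0.05 in limma and 0 passed after adjustment. Of all probe sets, 6.25% were higher at 1 h at that unadjusted threshold. It was passed by 9 of 9 after saccharin (median 0.36) and by 3 of 9 after water (median 0.22). The shares of all probe sets there, in either direction, were 7.98% and 7.23%. For the interaction 0 of 9 passed it, against 2.96% of all probe sets. The array numbers C365 to C372 are the 3 h rats and C373 to C380 the 1 h rats, so an effect of the order of the numbers and an effect of time cannot be told apart. In tissue RNA, fewer cells of a type and less RNA per cell cannot be told apart either.

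None of the 7 genes passed a test of a difference between times or between tastes. In each of the 7 comparisons, which were time after saccharin, time after water, taste at 1 h, taste at 3 h, their interaction, and time and taste averaged over the other factor, limma called 0 of 7 genes at an adjusted p under 0.05 and 0 of 7 at an unadjusted p under 0.05. Over all probe sets tested, the adjusted threshold was passed by 0.348% for time after saccharin, 0.125% for time after water, 1.01% for time averaged over the tastes, and 0% for taste at 1 h, at 3 h or averaged and for the interaction. The unadjusted threshold was passed by 7.98% and 7.23% for time after saccharin and after water, 3.06% and 3.37% for taste at 1 h and at 3 h, 2.96% for the interaction and 3.39% for averaged taste, and for averaged time by 6.25% that were higher at 1 h and 5.77% that were lower. Against these shares, 0 of 7 is close to the background of the whole table.

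The intervals show what size of difference in tissue RNA these arrays leave room for, each taken by itself and not adjusted for their number. All 49 of the 95% intervals (7 genes in 7 comparisons) lay within log2 0.32 either way, the log2 of the fold change that the study's methods ask of a changed gene. Over all probe sets the share with such an interval was 91.6% for time after saccharin, 91.8% for time after water, 94.4% and 94.0% for taste at 1 h and at 3 h, 75.3% for the interaction, 97.1% for averaged time and 98.7% for averaged taste. The interval that reached farthest was that of Gabrd for the interaction, down to -0.25, and among the comparisons of 2 groups that of Gabrb1 for time after saccharin, down to -0.23. In 28 of 28 comparisons of 2 groups the arrays of the groups overlapped, where 4.78%, 4.35%, 1.50% and 1.91% of all probe sets did not overlap for time after saccharin, time after water, and taste at 1 h and at 3 h.

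**Figure D1:**
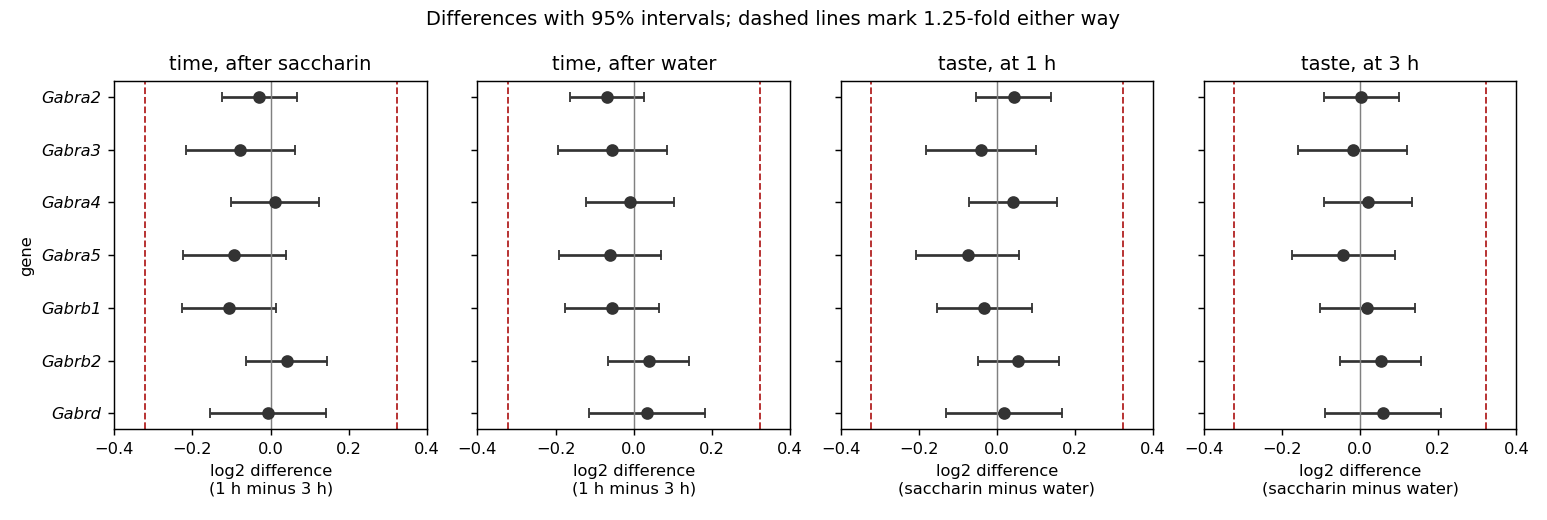
Log2 differences of the 7 GABA-A subunit genes between times (1 h minus 3 h) and between tastes (saccharin minus water), as points with 95% intervals from limma. All intervals shown lie between the dashed lines at log2 0.32 either way and cross 0.

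The alpha subunits decide much of where a receptor sits and which drugs it answers. Gabra2 encodes alpha2, found in receptors on cell bodies and on the axon initial segment of pyramidal cells. Its values were 9.30, 9.35, 9.37 and 9.29 in the water 1 h rats, 9.32, 9.44, 9.38 and 9.46 at water 3 h, 9.41, 9.32, 9.40 and 9.37 at saccharin 1 h, and 9.48, 9.38, 9.40 and 9.36 at saccharin 3 h. The lowest array was a water 1 h rat and the highest a saccharin 3 h rat, and the groups overlapped. The means ran from 9.33 ± 0.04 (SD, n = 4) at water 1 h to 9.40 ± 0.05 (SD, n = 4) at saccharin 3 h. Gabra2 had the smallest spread of the 7, with a residual SD of 0.049 against a median of 0.093 over all probe sets, and 4.97% of probe sets had a smaller one. Its difference between times, averaged over the tastes, was -0.049 (SE 0.032, adjusted p = 0.60 in limma).

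Gabra3 encodes alpha3, in the cortex a subunit of the deeper layers. Its values were 9.28, 9.29, 9.21 and 9.03 at water 1 h, 9.18, 9.20, 9.34 and 9.31 at water 3 h, 9.16, 9.29, 9.13 and 9.06 at saccharin 1 h, and 9.34, 9.28, 9.15 and 9.18 at saccharin 3 h. The lowest values, 9.03 and 9.06, were both of 1 h rats, one from each taste, and the others overlapped throughout. The means ran from 9.16 ± 0.10 (SD, n = 4) at saccharin 1 h to 9.26 ± 0.08 (SD, n = 4) at water 3 h, and the averaged difference between times was -0.066 (SE 0.047, adjusted p = 0.64 in limma). With the mean of the striatal marker genes as a covariate, the Gabra3 difference turned to 0.013 (adjusted p = 0.95 in limma). Neither difference passed, and the part of striatal cells in Gabra3 was not tested. The covariate holds Pde10a and Chrm4, which themselves changed with time, as described further on.

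Gabra4 encodes alpha4, which pairs with delta in extrasynaptic receptors and makes a receptor insensitive to classical benzodiazepines. Its values were 9.37, 9.36, 9.43 and 9.43 at water 1 h, 9.38, 9.46, 9.39 and 9.39 at water 3 h, 9.45, 9.33, 9.46 and 9.51 at saccharin 1 h, and 9.51, 9.48, 9.44 and 9.28 at saccharin 3 h. The saccharin groups held both the highest and the lowest arrays, and the water groups lay inside their range. Averaged over the tastes, the difference between times was 0.00061 (SE 0.038, adjusted p = 1.00 in limma), the smallest of the 7 genes.

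Gabra5 encodes alpha5, the subunit of tonic inhibition in pyramidal dendrites that is best known from work on memory. Its values were 8.83, 9.03, 8.93 and 8.82 at water 1 h, 8.97, 8.89, 8.99 and 9.01 at water 3 h, 8.78, 8.99, 8.72 and 8.83 at saccharin 1 h, and 9.01, 8.96, 8.85 and 8.88 at saccharin 3 h. Of the saccharin 1 h rats 3 lay below every 3 h rat and the other among the highest, so that the groups overlapped. Gabra5 had the widest spread of group means, from 8.83 ± 0.12 (SD, n = 4) at saccharin 1 h to 8.97 ± 0.05 (SD, n = 4) at water 3 h. Its averaged difference between times was -0.077 (SE 0.044, unadjusted p = 0.099, adjusted p = 0.52 in limma), and that between tastes was -0.059 (SE 0.044, adjusted p = 1.00), the most negative of the 7. Without the saccharin 1 h rat C377 the difference between times became -0.10, with an unadjusted p of 0.022 and an adjusted p of 0.30.

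The beta subunits are needed for assembly and hold one face of the GABA site. Gabrb1 values were 8.90, 8.90, 9.03 and 8.83 at water 1 h, 8.94, 8.88, 9.07 and 8.99 at water 3 h, 8.84, 8.97, 8.93 and 8.80 at saccharin 1 h, and 9.07, 9.01, 8.98 and 8.91 at saccharin 3 h. After saccharin the 1 h rats lay mostly below the 3 h rats, with an overlap of a pair of 1 h rats with the lowest 3 h rat. There the mean at 1 h was 8.88 ± 0.08 (SD, n = 4) and that at 3 h was 8.99 ± 0.07 (SD, n = 4), and the difference of -0.11 (SE 0.057) had the smallest p of the 7 genes in any comparison of 2 groups, at 0.080 unadjusted and 0.69 adjusted in limma and 0.11 in an exact permutation test (two-sided), where 4 arrays against 4 allow no less than 0.029. Averaged over the tastes the difference was -0.081 (SE 0.041, unadjusted p = 0.061, adjusted p = 0.44 in limma).

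Gabrb2 encodes beta2, an abundant beta subunit of the adult cortex. Its values were 10.12, 10.15, 10.11 and 10.04 at water 1 h, 10.04, 10.13, 10.06 and 10.04 at water 3 h, 10.27, 10.09, 10.12 and 10.16 at saccharin 1 h, and 10.19, 10.14, 10.11 and 10.04 at saccharin 3 h. The highest array was a saccharin 1 h rat, and each group reached down to between 10.04 and 10.09. The means ran from 10.07 ± 0.04 (SD, n = 4) at water 3 h to 10.16 ± 0.08 (SD, n = 4) at saccharin 1 h. Gabrb2 had the smallest p of the 7 genes for taste averaged over the times, with a difference of 0.054 (SE 0.035, unadjusted p = 0.14, adjusted p = 1.00 in limma).

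Gabrd encodes delta, the subunit of extrasynaptic receptors that respond to low GABA and to neurosteroids. Its values were 7.77, 7.65, 7.64 and 7.73 at water 1 h, 7.63, 7.85, 7.53 and 7.64 at water 3 h, 7.79, 7.72, 7.63 and 7.73 at saccharin 1 h, and 7.61, 7.75, 7.90 and 7.62 at saccharin 3 h. Both 3 h groups were the wider ones, with an SD of 0.13 each against 0.061 and 0.065 at 1 h, a difference in spread that was not tested. Over the 16 arrays Gabrd ranged over 1.29-fold, the most of the 7, and Gabra2 over 1.14-fold, the least.

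**Figure D2:**
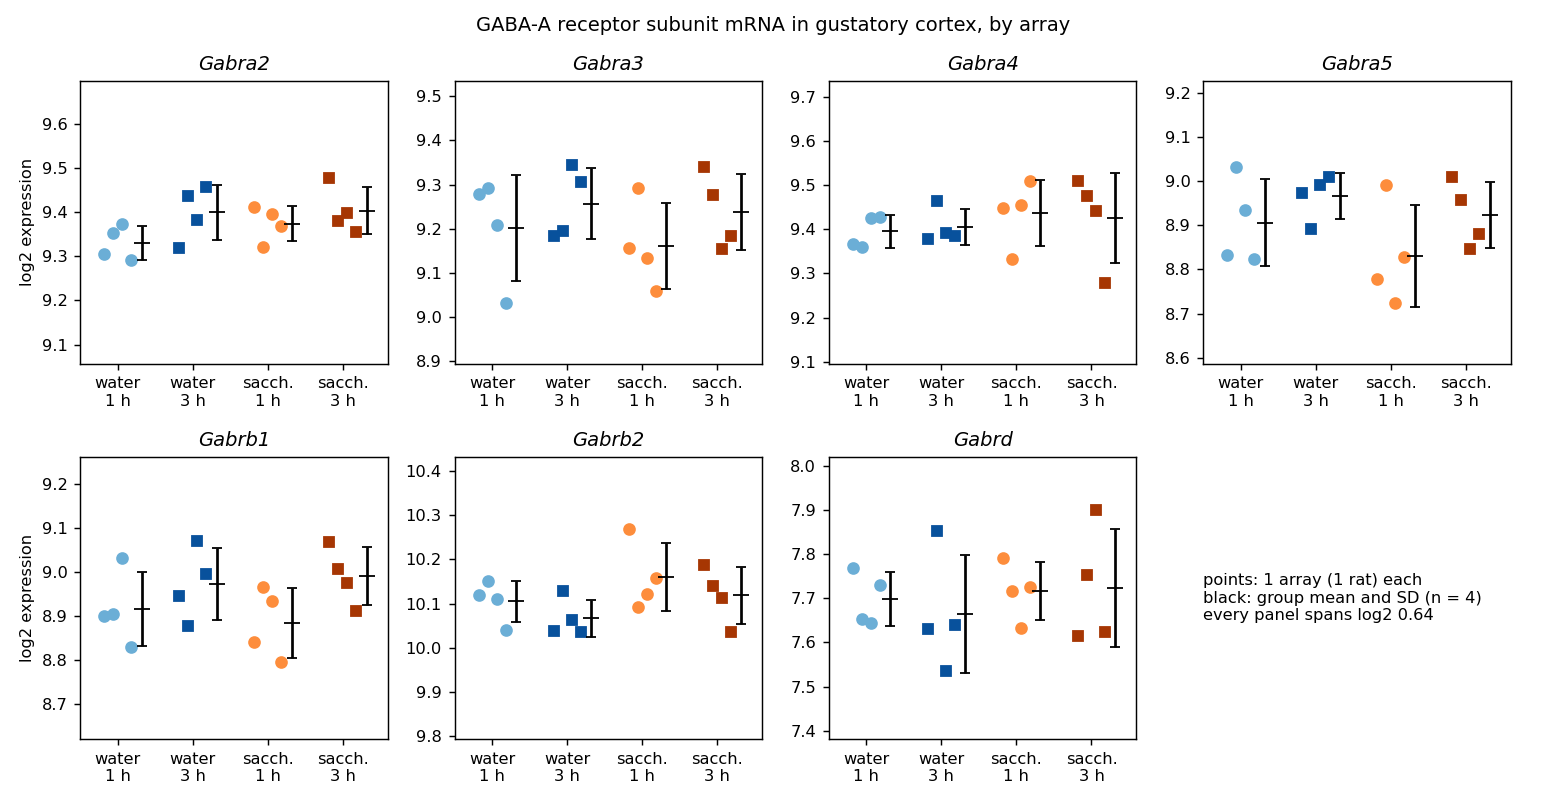
Log2 expression of each GABA-A subunit gene in the GC, with 1 point per array (1 rat), and the group mean and SD (n = 4) in black. Each panel spans the same log2 range around the gene's own mean, so spreads can be compared between panels and levels cannot, and the 4 groups overlap in every panel.

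Ordered by their means, the 4 groups of a gene were separated by small steps. The order from low to high for Gabra2 was water 1 h, then saccharin 1 h, then both 3 h groups, saccharin above water. It was saccharin 1 h, water 1 h, saccharin 3 h and water 3 h for Gabra3 and Gabra5, and for Gabrb1 the same with the 3 h groups in reverse. For Gabra4, Gabrb2 and Gabrd both water groups lay below both saccharin groups. Within the tastes, 1 h was the lower of the water groups and the higher of the saccharin groups for Gabra4, 3 h was the lower in both for Gabrb2, and for Gabrd water 3 h was lowest, then water 1 h, with saccharin 1 h just under saccharin 3 h. All 21 steps between neighbours, of 0.0035 to 0.075, were smaller than the gene's residual SD, and the lowest and the highest group overlapped for 7 of 7 genes. The median difference of the 7 genes was -0.029 for time after saccharin, -0.055 for time after water and -0.049 for averaged time, where the medians over all probe sets were 0.0023, -0.0023 and -0.000012. For taste the medians of the 7 were 0.018 at 1 h, 0.019 at 3 h and 0.023 averaged, where the medians over all probe sets were 0.0025, -0.0034 and -0.00092. The comparisons of time and of taste share groups, and their values are not independent of each other.

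Beside these 7, 9 other GABA-A subunit genes were measured, and 0 of 9 passed the adjusted threshold in any of the 7 comparisons in limma. The gamma subunits link receptors to the synaptic scaffold. Gabrg1, a neighbour of Gabra2, had a mean of 8.09 over the arrays and a difference between times of -0.023 (SE 0.052), and Gabrg3, a neighbour of Gabra5, had a mean of 6.95 and a difference of -0.060 (SE 0.058). The other 7, Gabra6, Gabre, Gabrp, Gabrq, Gabrr1, Gabrr2 and Gabrr3, had means of 3.15 to 3.83, under the median of every array, and differences between times from -0.092 for Gabrr2 to 0.057 for Gabre. At an unadjusted p under 0.05 there was 1 gene for time after water, Gabrp at -0.10 (adjusted p = 0.66), and 1 for the interaction, Gabrq at -0.27 (adjusted p = 1.00), which were picked out after their values were seen.

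Of the genes that supply GABA, place its receptors or set the chloride gradient, 1 passed the test. It did so for averaged time, where 1.01% of all probe sets passed. Gabarapl1, a relative of the GABA-A receptor-associated protein that also works in autophagy, was lower at 1 h than at 3 h, by -0.16 averaged over the tastes (SE 0.037, adjusted p = 0.046 in limma). Its values were 9.84, 9.69, 9.79 and 9.69 at water 1 h, 9.87, 9.85, 9.90 and 9.88 at water 3 h, 9.61, 9.72, 9.73 and 9.79 at saccharin 1 h, and 9.87, 10.03, 9.89 and 9.85 at saccharin 3 h. The highest 1 h rat and the lowest 3 h rat stood at 9.84 and 9.85. How many of all probe sets separate the 8 rats of either time was not counted. The differences within a taste, -0.20 after saccharin and -0.13 after water, did not pass (adjusted p = 0.20 and 0.61), and the interaction was -0.070 (SE 0.075, adjusted p = 1.00). The call was kept in 6 of 24 alternative settings, with adjusted p from 0.011 to 0.23 and differences from -0.18 to -0.14. It was lost in a fit with the mean of the striatal markers as a covariate (adjusted p = 0.23), and without any one of the rats other than C373 and C380.

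The list that holds Gabarapl1, the scaffold and trafficking proteins of the inhibitory synapse, had 21 of 26 genes measured. For averaged time it had 1 gene lower, 0 higher, and a median of -0.014, and for the other 6 comparisons 0 in either direction. Gphn, the gephyrin scaffold, differed by 0.0041 between times (SE 0.042, adjusted p = 0.98), and Nlgn2, the adhesion protein that binds it, by -0.0052 (SE 0.049, adjusted p = 0.98). Relatives of Gabarapl1 stood on the other side, with Gabarap at 0.066 (adjusted p = 0.61) and Gabarapl2 at 0.073 (adjusted p = 0.36). Shisa7, which binds GABA-A receptors and speeds their kinetics, and Hap1, which carries them to the surface, were at -0.15 and -0.16 (adjusted p = 0.17 and 0.24). The smallest p of the list for averaged taste was that of Slitrk3, an adhesion protein of inhibitory synapses, at 0.065 (SE 0.035, adjusted p = 1.00).

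The remaining lists had no gene past the adjusted threshold in any comparison in limma. Of the GABA-B receptor list 3 of 5 genes were measured, and Gabbr1, the subunit that binds GABA, had the smallest p for averaged time, at -0.071 (SE 0.027, adjusted p = 0.28), and Kctd8, an auxiliary subunit, for averaged taste, at 0.069 (SE 0.047, adjusted p = 1.00). Of the synthesis, release and uptake list 7 of 8 were measured, with Gad1 and Gad2, which make GABA, at -0.029 and 0.032 between times and 0.047 and 0.026 between tastes. Slc6a13, the transporter that is mostly in the meninges and was also in the leptomeningeal list, had the smallest p there for both factors, at 0.17 for time (SE 0.083, adjusted p = 0.43) and 0.18 for taste (SE 0.083, unadjusted p = 0.046, adjusted p = 1.00). Of the chloride transport list 4 of 5 were measured, with Slc12a5, the potassium-chloride exporter of mature neurons, at 0.030 between times, Clcn2, a chloride channel, at 0.12 (SE 0.056, unadjusted p = 0.042, adjusted p = 0.39) and Stk39, a kinase of the transporters, at 0.058 between tastes (SE 0.045, adjusted p = 1.00). Of the neurosteroid synthesis list 4 of 6 were measured, and Star, the cholesterol carrier, had the smallest p for both, at 0.095 for time (SE 0.067, adjusted p = 0.64) and -0.079 for taste (SE 0.067, adjusted p = 1.00). All 4 had means of 3.24 to 4.33, under the median of every array.

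**Figure D3:**
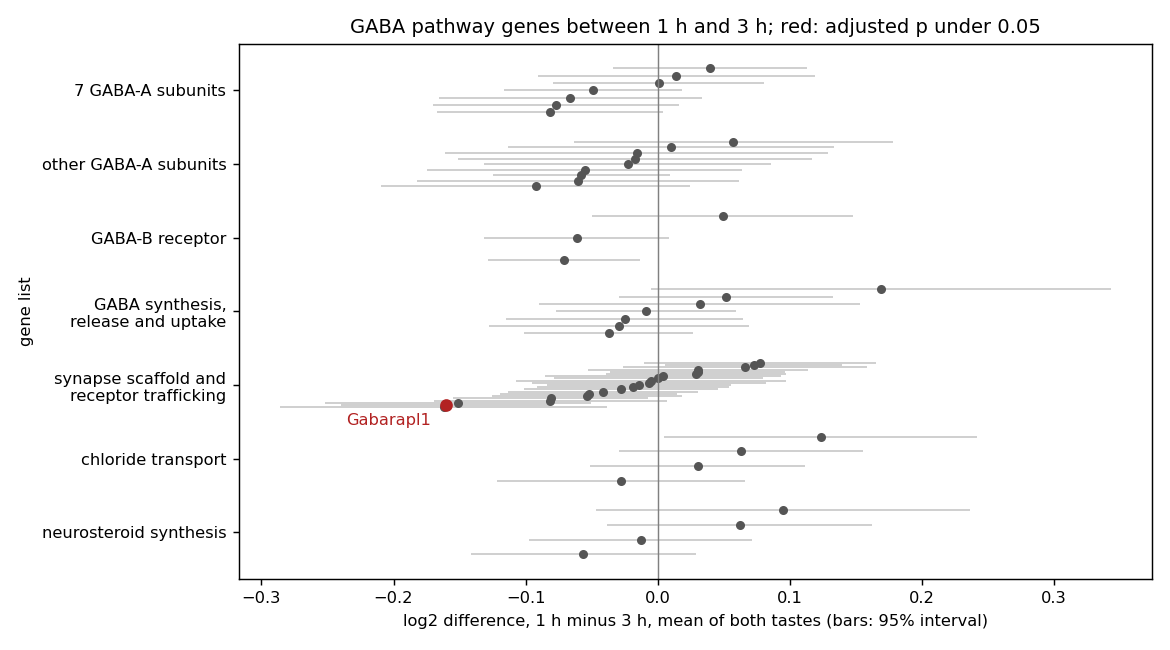
Log2 differences between times (1 h minus 3 h, averaged over both tastes, with 95% intervals) for every measured gene of the GABA lists, 1 point per gene and lists on the vertical axis. Gabarapl1, in red at -0.16, is the 1 gene past the adjusted threshold.

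Although no difference between groups passed a test, some of the subunits correlated over the 16 arrays with the 4 groups pooled. With the group means removed, 0 of 21 pairs passed. How often other pairs of genes on these arrays correlate as strongly was not computed. Pearson correlations over the 16 arrays were computed for all 21 pairs, with p-values from 100000 permutations adjusted over the pairs, and all values of a rat come from 1 array. Gabra3 and Gabra5 correlated at r = 0.75 (rho = 0.85, permutation p = 0.00084, adjusted p = 0.011), and Gabra3 and Gabrb1 at r = 0.74 (rho = 0.68, adjusted p = 0.011 for r and 0.053 for rho). These 2 pairs passed, and Gabra5 and Gabrb1 followed at r = 0.61 (rho = 0.62, adjusted p = 0.088). The rats highest in Gabra3, at 9.34 in a water 3 h and in a saccharin 3 h rat, were also highest in Gabrb1 at 9.07, and the lowest, at 9.03 and 9.06, had Gabrb1 at 8.83 and 8.80 and Gabra5 at 8.82 and 8.83.

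Both relations were positive at each time. Within the 8 rats at 1 h, Gabra3 correlated at 0.65 with Gabra5 and at 0.62 with Gabrb1 (exact permutation p = 0.084 and 0.105), and within the 8 rats at 3 h at 0.85 and 0.83 (exact permutation p = 0.014 and 0.014). On deviations from the 4 group means r was 0.70 for both, with permutation p-values of 0.012 and 0.011 from shuffles within groups and adjusted p-values of 0.12, so that 0 of 21 pairs passed in that form. Without the 2 rats farthest from the median of Gabra3, r was 0.77 with Gabra5 and 0.57 with Gabrb1. Without the saccharin 1 h rat C380 alone, Gabra3 with Gabrb1 was at 0.677 and no longer passed (adjusted p = 0.061).

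**Figure D4:**
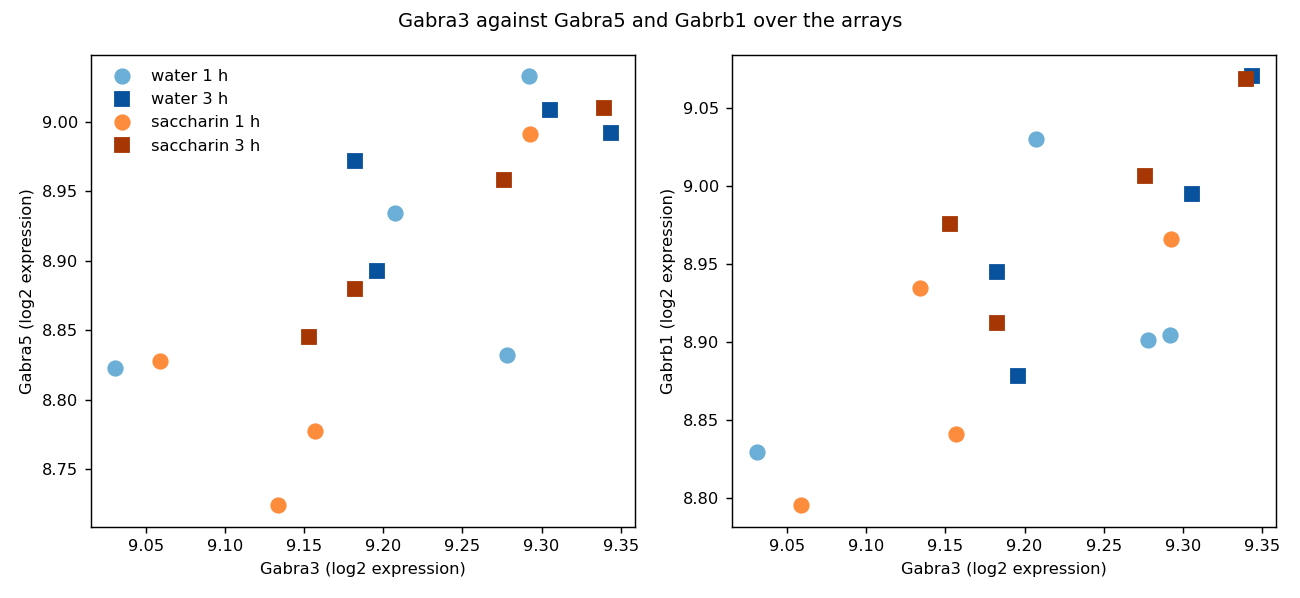
Log2 expression of Gabra5 (left) and Gabrb1 (right) against Gabra3, 1 point per array, coloured by group. Both relations are positive over the 16 pooled arrays, with r = 0.75 and 0.74. On deviations from the group means r was 0.70 for both, and neither passed (adjusted permutation p = 0.12).

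A second set of pairs was weaker. Gabra4 correlated with Gabrb2 at r = 0.57 (rho = 0.65, adjusted p = 0.11), at 0.29 within 1 h and 0.89 within 3 h, and with Gabra2 at 0.49 (rho = 0.54, adjusted p = 0.23). Gabra2 and Gabrb2 correlated at 0.37 (rho = 0.35, adjusted p = 0.33) and at 0.62 on deviations from the group means (adjusted p = 0.14). Gabra4 and its chromosomal neighbour Gabrb1 had an r of -0.043 (rho = -0.053, adjusted p = 0.97), and Gabrb1 and Gabrb2, which share the promoter runs shown above, one of -0.19 (rho = -0.22, adjusted p = 0.60). Gabrd went against Gabra3, Gabra5 and Gabrb1, at -0.38, -0.43 and -0.46 (rho = -0.42, -0.47 and -0.51, adjusted p = 0.33, 0.28 and 0.26), and these 3 did not pass.

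**Figure D5:**
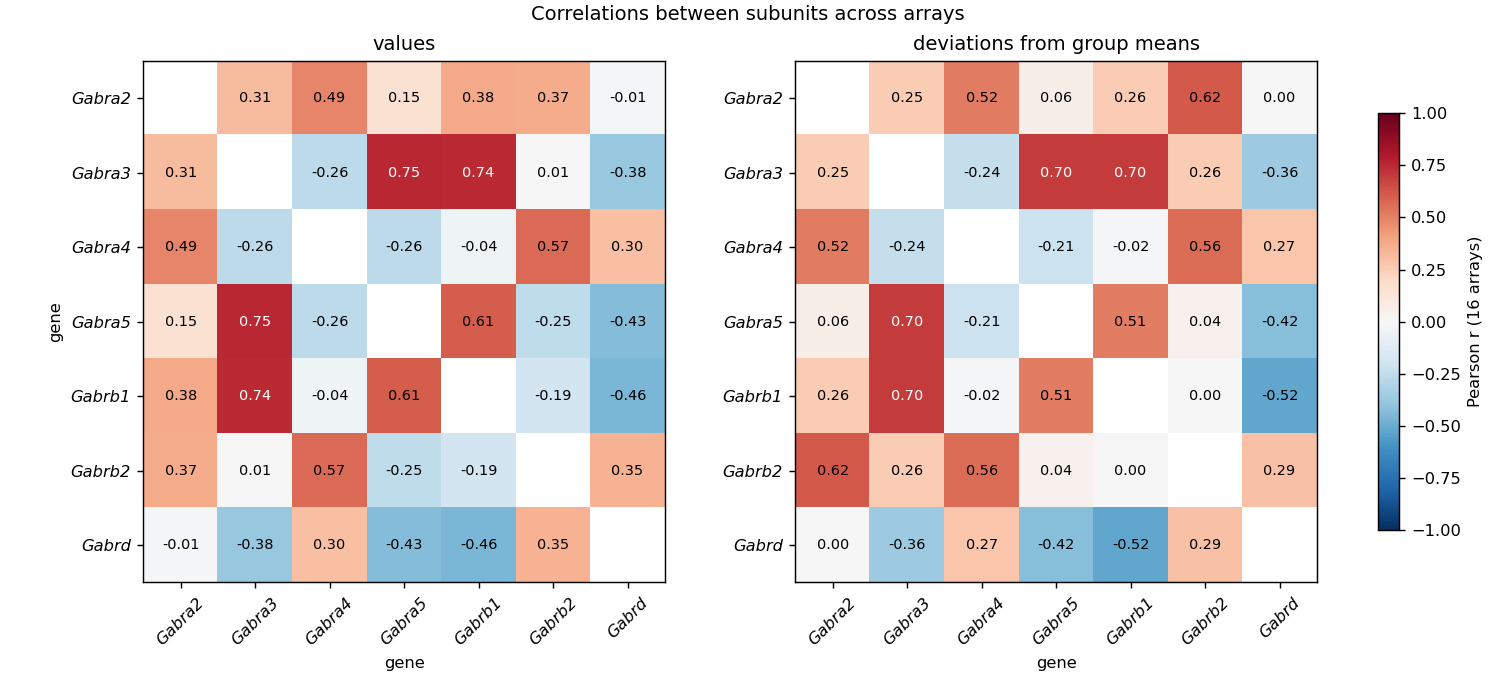
Pearson correlations between the 7 subunit genes over 16 arrays, of the values (left) and of deviations from the 4 group means (right), with colour from -1 to 1. Gabra3, Gabra5 and Gabrb1 form the red block, at 0.61 to 0.75 on the left, and Gabrd is negative with all of them.

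One subunit varied with a list of marker genes of other cells. Of 77 relations between a subunit and the mean of a marker list, a family chosen after the data had been seen, 1 passed, that of Gabra3 with the striatal medium spiny neuron list, at r = 0.80 (rho = 0.66, adjusted p = 0.0092), 0.92 within 1 h and 0.43 within 3 h, 0.62 without the 2 farthest rats, and 0.78 on deviations (adjusted p = 0.23). This list had 13 of 16 genes measured, and its mean was 6.35 to 6.54 at water 1 h, 6.49 to 6.54 at water 3 h, 6.43 to 6.53 at saccharin 1 h and 6.45 to 6.55 at saccharin 3 h. Within it Pde10a and Chrm4 changed with time in opposite directions, by -0.49 and 0.41 (adjusted p = 0.000016 and 0.000054 in limma). Its members Drd2 and Adora2a had group means under the lowest array median. The other marker lists (neurons, cortical excitatory neurons, interneurons, astrocytes, oligodendrocytes, microglia, endothelium, leptomeninges, thalamus and choroid plexus) had 0 genes past the adjusted threshold for time or taste. With the striatal mean as a covariate, 0 of 7 subunits were called in any comparison, as without it, while the averaged time difference of Gabra3 went from -0.066 to 0.013 and that of Gabra5 from -0.077 to -0.032. The next relations, Gabra4 with the endothelial and the thalamic list (r = 0.70 and 0.71, rho = 0.66 and 0.59, adjusted p = 0.068 each) and Gabrb2 with the interneuron list (r = 0.67, rho = 0.74, adjusted p = 0.099), did not pass. The part of any of these cells, or of the leptomeningeal genes that lay higher at 1 h, in the subunits' values was not tested.

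The genes whose rat-to-rat pattern was most like each subunit were taken from 7510 other genes with a mean of at least 6, by Pearson r of deviations from the group means over the 16 arrays, as a description without a test. For Gabra2 they were Plekhf2, Suco and Selenot (r = 0.87, 0.86 and 0.81), and for Gabra3 Resp18, Ndufaf3 and B3galt2 (0.90, 0.90 and 0.87). For Gabra4 they were Abcd2, Tmem67 and Usp24 (0.91, 0.91 and 0.88), and for Gabra5 Tada1, Gfra1 and Avpi1 (0.85, 0.84 and 0.83). For Gabrb1 they were Cln8, Smim30l1 and Rab28 (0.87, 0.84 and 0.84), for Gabrb2 Nt5dc3, Kif5a and Dnajc18 (0.88, 0.88 and 0.88), and for Gabrd Tceal8, Src and Pitpnm1 (0.89, 0.86 and 0.85). On the values themselves r was much lower for some, at 0.44, -0.013 and 0.15 for those of Gabrb1 and 0.28 for Plekhf2. Others stayed high, such as Ndufaf3 at 0.90. These r are the highest of 7510 genes by choice, and how high such values run for other genes was not computed. Kif5a encodes a kinesin motor that carries cargo along microtubules in neurons, Src a tyrosine kinase, and Gfra1 a receptor for the growth factor GDNF. No gene stood in the first 3 of more than 1 subunit of the 7.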

How the data were processed

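RNA of the gustatory cortex of 16 rats was hybridised to 1 Affymetrix array each. The authors used the package affy (version not given in the sources used here) for quantile normalization over all arrays and RMA summaries, and the deposited values are log2 expression. They were used as deposited. The platform annotation gives 1 gene to 15209 of the 28826 probe sets, several genes to 306 and none to 13311. The 4 group means were fitted over the 15209 with limma 3.58.1 in R 4.3.3 (1 shared spread, empirical Bayes), with two-sided tests, Benjamini-Hochberg adjustment and a threshold of 0.05. Intervals are 95%. The number of arrays limits the precision. The fit was tested on simulated data. Correlations were tested by permutation with NumPy 2.4.6 and SciPy 1.17.1. Where a listed gene had several probe sets the brightest was taken.

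The text names all 7 subunit genes, every other measured GABA-A subunit, the 3 genes most like each, the called or lowest-p genes of each GABA list and the brightest gene of marker lists (neurons, Snap25, 11.64; astrocytes, Slc1a2, 11.40; oligodendrocytes, Mbp, 10.34; endothelium, Slco1a4, 8.54; microglia, Csf1r, 8.34; striatum, Foxp1, 8.20; leptomeninges, Ogn, 8.02; thalamus, Prkcd, 6.69; choroid plexus, Kl, 4.21). Further genes of the lists (Gphn, Nlgn2, Gabarap, Gabarapl2, Shisa7, Hap1, Gad1, Gad2, Slc12a5) were added after their values were seen. The genes and lists were chosen with earlier results of these data known. Alternatives covered the probe sets tested, a filter on dim ones, centring, repeated quantile normalization, the prior, array weights, fits on 8 arrays, the methods' cut-off, the striatal marker mean and leaving out each array.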

Additional observations from a re-analysis of the deposited data

Results flagged for a closer look

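Gabra4 in the water 3 h rat C367 stood apart from its group, at 9.46 where the nearest of the other 3 was 9.39, a gap that made up 0.86 of the range of the group. Of 28 groups of 4 values examined (7 genes in 4 groups) this was the 1 past Dixon's limit, and chance passes it in about 1 of 20. The value lay within the range of the saccharin groups.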

How the results depend on the processing

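Each difference between 2 groups was recomputed under 25 alternative settings and each averaged difference or interaction under 24, 1204 values in all. In limma 0 of them were called and all intervals stayed within log2 0.32. Of these values 66 changed sign, none of a difference larger than 0.066 in size, and 12 had an unadjusted p under 0.05, all of Gabra5 or Gabrb1 for time or of Gabra5 for taste at 1 h, the smallest adjusted p being 0.30. The number of subunits called stayed 0 in each comparison, also at the methods' cut-off. The correlations of Gabra3 with Gabra5 and with Gabrb1 were 0.701 and 0.702 on deviations from the group means and did not pass (adjusted p = 0.12). Without one rat at a time, Gabra3 with Gabra5 ranged from 0.725 to 0.821 and passed each time (adjusted p up to 0.041), and Gabra3 with Gabrb1 ranged from 0.677 to 0.794 and was lost without C380 (adjusted p = 0.061). Gabra5 with Gabrb1 reached the threshold without C374 (0.703, adjusted p = 0.029) or C379 (0.699, adjusted p = 0.035). The cause was not tested. Standard errors of 0.045 to 0.070 for comparisons of 2 groups limit what these arrays can resolve. No paired analysis was possible because the groups share no replicate numbers.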
